A study of Mus musculus with 3 samples.

Results

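Wide peaks in a map of L1 RNA on mouse chromatin are described here: those of at least 10000 bp from start to end on chromosomes 1 to 19, of which there were 2669 among 21985 peaks on these chromosomes and 24666 in the whole list. They were chosen by width alone, so that their width, and the bases they cover, are a description of the choice and carry no test. The map comes from ChIRP (chromatin isolation by RNA purification), in which biotinylated DNA probes capture an RNA together with the chromatin crosslinked to it, in E14 cells, a line of mouse embryonic stem cells kept in serum with leukemia inhibitory factor. The series holds 3 E14 samples, an L1 ChIRP library, a Malat1 ChIRP library and input DNA, each a single library. Only the L1 library was analysed, from the authors' deposited peak list, and its read depth is unknown. The list gives a chromosome, a start and an end per peak in the mm9 build, with no height or score. The labels name genomic DNA as the molecule, whereas the protocol describes retrieved RNA, so what was sequenced is not settled. With 1 library, no value below could be set against a spread between replicates, and no p-value is given.

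L1 (long interspersed element 1) is a retrotransposon that copies itself through an RNA intermediate. Full-length copies carry an internal promoter and 2 open reading frames, for an RNA-binding protein and for a reverse transcriptase with an endonuclease, while most copies in the genome are shortened at the 5′ end. L1 copies are known to be concentrated in gene-poor, AT-rich chromatin, and L1 RNA is transcribed in mouse embryonic stem cells and early embryos, where part of it stays in the nucleus. A broad peak may hold several L1 copies or other sequence. No repeat or gene annotation of mm9 was used here, so the regions are given by coordinate, with positions counted from 1, and without the genes or L1 copies they hold. No sequence is shown for the same reason.

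Wide peaks were a minority of the peaks and held a larger share of the covered bases. They made up 12.1% of the peaks (exact 95% binomial interval 11.7 to 12.6, which covers counting error only and treats peaks as independent). They covered 35.5 Mb of the 144.8 Mb under all peaks of these chromosomes, or 24.5%. Relative to the sequence from the first to the last peak of each chromosome, called the span, all peaks covered 6.01% and wide peaks 1.47%.

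The widths of the wide peaks fell off steeply from the limit. Their median was 12044 bp, with quartiles of 10813 and 14550 bp, a 95th percentile of 20822 bp and a maximum of 41011 bp. The narrower peaks, the other 19316, had a median of 5911 bp. The class from 10 to 11 kb held 779 peaks, that from 11 to 12 kb held 533, that from 14 to 15 kb held 176 and that from 19 to 20 kb held 48. Below the limit, the class from 9 to 10 kb held 1318. No class above 10 kb held more peaks than the class before it until the counts fell to 29 and fewer beyond 21 kb, so no further mode was seen among the wide peaks. The numbers of wide peaks of 15, 20, 25 and 30 kb or more were 587, 162, 47 and 12, and the 162 of at least 20 kb held 10.9% of the bases under wide peaks.

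**Figure D1:**
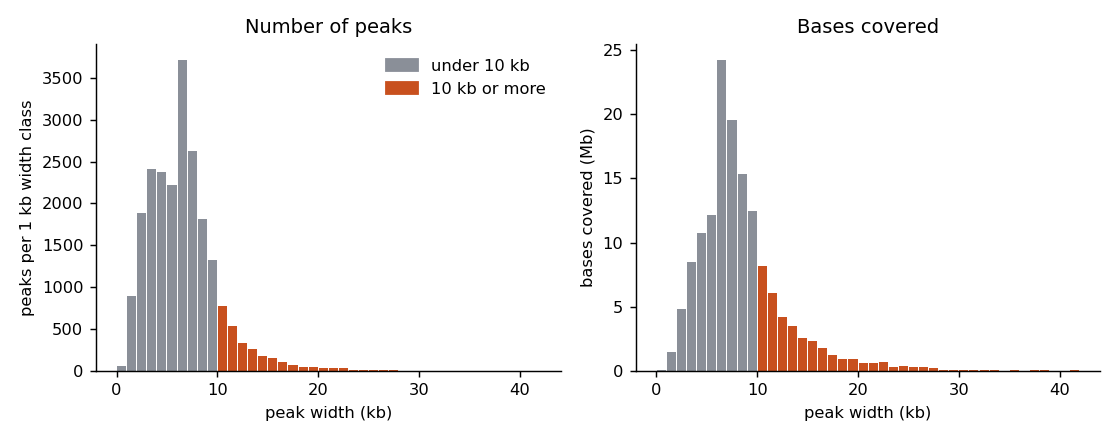
Number of peaks (left) and bases they cover in Mb (right) per 1 kb class of peak width, for chromosomes 1 to 19 of the L1 library, with peaks of 10 kb or more in orange. The 2669 wide peaks form the tail of a distribution whose highest class is 6 to 7 kb, and they hold 24.5% of the covered bases.

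The limit of 10000 bp falls on a slope with no gap in it. Width is end minus start as deposited, with starts taken to be counted from 0. If they were counted from 1, every peak would be 1 bp wider and the peaks of 9999 bp would reach the limit. The 3 peaks just inside were 10000 bp on chromosome 14 (40570886 to 40580885), 10001 bp on chromosome 5 (78557112 to 78567112) and 10001 bp on chromosome 13 (14654783 to 14664783). The 3 just outside were 9999 bp on chromosome 3 (98574856 to 98584854), 9999 bp on chromosome 11 (41368687 to 41378685) and 9998 bp on chromosome 15 (35118596 to 35128593). All 6 had other peaks in the region, from 1 to 10 within 100 kb of their edges.

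Chromosomes differed in how many of their peaks were wide, by up to 2.16 times. Chromosome 19 had the highest share, 60 of 372 peaks or 16.1% (95% binomial interval 12.5 to 20.3), followed by chromosome 3 with 282 of 1964 or 14.4% (12.8 to 16.0) and chromosome 6 with 211 of 1480 or 14.3% (12.5 to 16.1). Chromosome 14 had the lowest, 88 of 1176 or 7.48% (6.04 to 9.14), followed by chromosome 12 with 8.80% (7.19 to 10.6) and chromosome 15 with 8.83% (7.08 to 10.9). The intervals of the 3 highest overlap, as do those of the 3 lowest, so the order within each trio is not fixed by these counts. The interval lay above the pooled 12.1% on 3 chromosomes, which are the 3 highest. It lay below the pooled value on 4, which are the 3 lowest and chromosome 5 with 9.62% (8.04 to 11.4). These intervals treat peaks as independent, although wide peaks followed one another. The next peak was wide in 20.1% of cases after a wide peak and in 11.0% after a narrower one. The intervals are therefore probably too narrow, and the pooled value includes each of the 19 chromosomes. Sorting chromosomes as above or below it is a description and no test.

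A chromosome with dense peaks did not necessarily have a higher share of wide ones. Over the 19 chromosomes, the share of wide peaks and the number of all peaks per Mb of span had a Spearman correlation of -0.06 and a Pearson correlation of -0.10, as a description of points that come from the same library. Chromosomes 14 and 12 held 9.63 and 9.23 peaks per Mb, more than chromosome 19 with 6.38, yet had lower shares of wide peaks. The number of wide peaks per Mb did go with that of all peaks per Mb, which includes them (Spearman 0.58, Pearson 0.69). By number per Mb of span, chromosome 3 stood first with 1.80 wide peaks, then chromosome 6 with 1.44 and chromosome 1 with 1.34. Chromosomes 11, 14 and 5 had the fewest, with 0.69, 0.72 and 0.80 per Mb. On chromosome 11 few peaks of any width lay (5.20 per Mb), of which 13.3% were wide. On chromosome 14 peaks were common and 7.48% of them were wide.

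Wide peaks held between 15.9% of the covered bases on chromosome 14 and 31.3% on chromosome 19, with a median of 25.1% over the 19 chromosomes. The median width of the wide peaks themselves ran from 11505 bp on chromosome 12 to 12483 bp on chromosome 7. The limit of 10000 bp holds each such median near it, so this range cannot be set against that of the wide share. The 162 peaks of at least 20 kb, 6.07% of the wide peaks, lay on all 19 chromosomes. Chromosome 3 held 22 (7.80% of its wide peaks), chromosome 1 held 20 (7.69%), and chromosomes 2 and 6 held 14 each (6.93% and 6.64%). The highest shares were on chromosome 17, with 7 among 79 or 8.86%, and chromosome 19, with 5 among 60 or 8.33%. Chromosome 14 held 1 such peak among its 88 wide peaks, and chromosome 18 held 2 among 103.

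**Figure D2:**
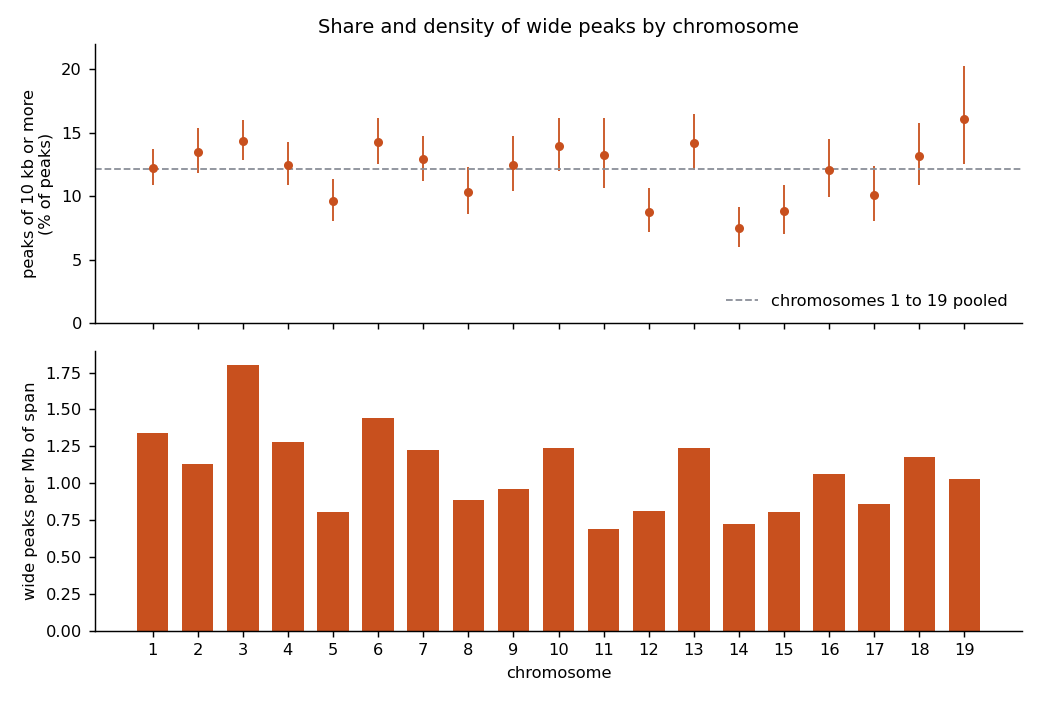
Share of peaks that are 10 kb or wider with exact 95% binomial intervals (top, in percent, dashed line at the pooled 12.1%) and wide peaks per Mb of span (bottom, bars from 0) for chromosomes 1 to 19. Chromosome 19 has the highest share and chromosome 14 the lowest, whereas chromosome 3 has the most wide peaks per Mb and chromosome 11 the fewest.

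Along the chromosomes, wide peaks made up more of the peaks near the start of the span, which in the mouse lies next to the centromere. In the first 10 Mb of the spans 382 of 2412 peaks were wide, or 15.8% (14.4 to 17.4), against 11.7% (11.2 to 12.1) in the middle and 11.9% (9.98 to 14.03) in the last 10 Mb. The share in the first 10 Mb was higher than in the middle on 13 of 19 chromosomes. The last 10 Mb exceeded the middle on 10 of 19. Wide peaks per Mb numbered 2.01 in the first 10 Mb, 1.07 in the middle and 0.65 in the last 10 Mb. Peaks of any width fell in the same order, with 12.7, 9.14 and 5.44 per Mb.

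At the scale of 1 Mb, wide peaks gathered in few bins. A peak was counted in the bin of its midpoint, and the spans held 2419 bins. Of these, 1272 held no wide peak, 991 of which held narrower peaks. Bins with 3 or more wide peaks numbered 344, or 14.2% of bins, and held 59.2% of the wide peaks. Bins with 5 or more numbered 135, or 5.58% of bins, and held 873 wide peaks, or 32.7%, together with 34.7% of the bases under wide peaks. The same 135 bins held 13.6% of all peaks, a lower share that follows in part from choosing the bins by their wide peaks.

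Concentration measured this way rises as a class becomes rarer, so wide peaks were set beside narrower classes of similar number, made by ranking the narrower peaks by width and splitting them into 7 classes of 2759 or 2760. The 242 bins fullest in wide peaks, 10% of all bins, held 47.7% of the wide peaks. For the 7 narrower classes, each over its own fullest 242 bins, the share ranged from 36.0% (5270 to 6384 bp) to 40.5% (566 to 2969 bp). Bins with 5 or more peaks of a class numbered 135 for the wide peaks and 65 to 100 for the narrower classes. The fullest bin held 16 wide peaks, against 8 to 12 peaks of any narrower class. The wide class was also the smallest of the 8 and spans the largest range of widths.

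The 4 bins with the most wide peaks lay on chromosomes 16, 7, 3 and 7, and 3 bins on chromosomes 3, 19 and 13 tied for the fifth place. The bin at 19000001 to 20000000 of chromosome 16 held 16 wide peaks among 36, from 10085 to 24797 bp wide with a median of 14020 bp. These 16 covered 23.6% of the bin, and all peaks together 34.9%. On chromosome 7, the bin from 5000001 to 6000000 held 15 wide peaks among 42, with a median width of 14375 bp and 22.4% of the bin under them. The bin from 14000001 to 15000000 of the same chromosome held 14 among 34, the widest of which was 37247 bp, and its neighbour from 13000001 to 14000000, ninth in rank, held 10 among 23. Chromosome 3 from 22000001 to 23000000 held 14 wide peaks among 33, with a median width of 14902 bp and 22.7% of the bin under them. Chromosome 3 from 106000001 to 107000000 held 12 among 31, with 18.1% of the bin under them. The bins tied with it were chromosome 19 from 9000001 to 10000000, with 12 among 26 and 17.97% of the bin under them, and chromosome 13 from 33000001 to 34000000, with 12 among 28 and 17.2%. In these 7 bins between 35.7% and 46.2% of the peaks were wide, against 12.1% over all bins, which follows in part from their choice by the number of wide peaks.

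Bins with more narrower peaks held more wide ones, though not in proportion. The mean number of wide peaks per bin was 0.46 in the 655 bins with 1 to 4 narrower peaks, 1.57 in the 435 bins with 10 to 14, and 3.24 in the 45 bins with 25 or more. Over the 2419 bins the Spearman correlation of the numbers of wide and narrower peaks was 0.49, a description of bins that share a library and lie next to each other. When bins were grouped by the number of all peaks, the wide share was between 11.0% and 11.9% for bins of 1 to 19 peaks, 12.8% (11.7 to 13.9) for 20 to 24, 14.8% (13.3 to 16.5) for 25 to 29 and 18.97% (16.6 to 21.6) for the 29 bins with 30 or more. When grouped by the number of narrower peaks, it went the other way, from 16.3% (14.7 to 18.1) with 1 to 4 narrower peaks to 10.5% (8.90 to 12.2) with 25 or more. Each grouping uses a number that enters the share, so neither alone says whether wide peaks favour dense bins.

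The widest peaks were set among others in most cases. The widest of all, 41011 bp, lay on chromosome 4 from 115332608 to 115373618, with its neighbours 1.85 kb before it and 1.58 kb after it and 9 other peaks within 100 kb of its edges. The second, 38835 bp on chromosome 10 from 78893841 to 78932675, had neighbours at 2395 and 1497 bp and 6 other peaks within 100 kb. Next came a peak of 37247 bp on chromosome 7 from 14061574 to 14098820, in the bin from 14000001 named above, with 4.42 kb to the nearest peak, and another of 35459 bp on chromosome 7 from 49038325 to 49073783, with the next peak 0.15 kb after it. Both had 9 other peaks within 100 kb.

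The remaining 6 of the 10 widest were between 30492 and 33722 bp. They lay on chromosome 2 from 151262156 to 151295877 and from 37004409 to 37037313, on chromosome 3 from 14446597 to 14479238 and from 7174318 to 7204809, on chromosome 7 from 46527292 to 46559299 and on chromosome 13 from 61499743 to 61531387. Of the 10, 8 had another peak within 10 kb and none was farther than 100 kb from the nearest. The exceptions to close spacing were the peak of 33722 bp on chromosome 2, with 52.3 kb to its nearest neighbour and 410 kb to the next on the other side, and the peak of 32008 bp on chromosome 7, with 71.9 and 121 kb. That peak had 1 other peak within 100 kb, where the other 9 had between 4 and 9.

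**Figure D3:**
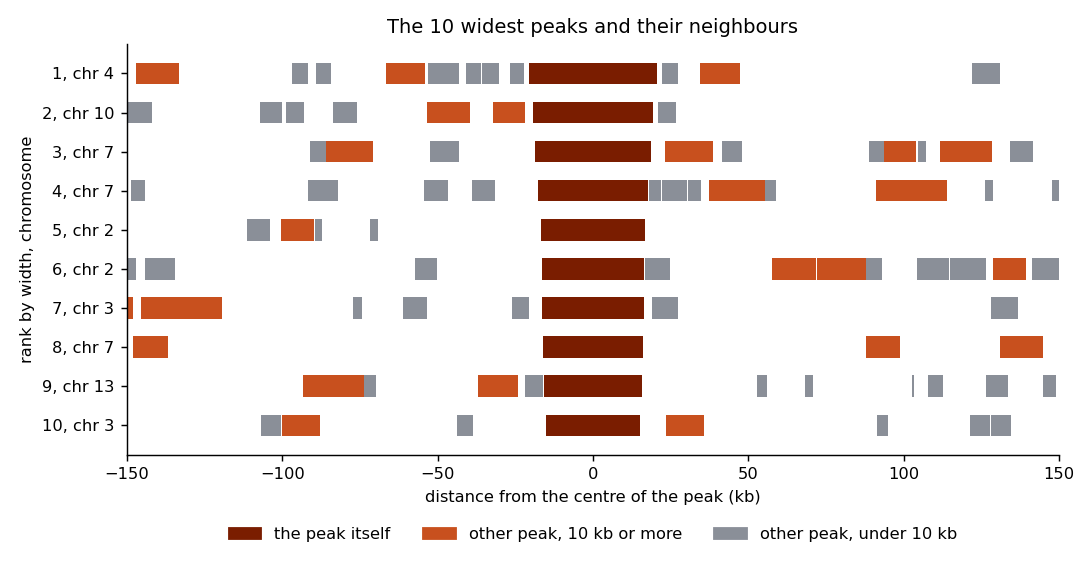
The 10 widest peaks, ranked by width from the top, with every other peak within 150 kb of the centre, drawn to scale in kb from the centre of each peak. Neighbours are under 10 kb away in 8 of the 10, and ranks 5 (chromosome 2) and 8 (chromosome 7) stand apart from their nearest neighbours by 52.3 and 71.9 kb.

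Wide peaks had a near neighbour more often than narrower ones. Distances are from edge to edge, so that the width of the peak itself takes up no room. Of all peaks on chromosomes 1 to 19, 40.2% had another within 10 kb. Among wide peaks the number was 1190 of 2669, or 44.6% (42.7 to 46.5), and among narrower peaks 7645 of 19316, or 39.6% (38.9 to 40.3). The 1312 wide peaks of 10 to 12 kb, at 39.3% (36.6 to 42.0), were like the pooled narrower peaks. Narrower peaks of 2 to 4 kb, at 48.9% (47.4 to 50.4), were above the wide peaks. The median distance to the nearest peak was 12550 bp for wide and 16439 bp for narrower peaks. The wide share was the higher on 14 of 19 chromosomes, by 15.5 percentage points at most on chromosome 16 (49.5% against 34.0%), and the lower on chromosomes 1, 8, 11, 15 and 18, with the most negative difference, -6.84 points, on chromosome 11 (28.0% against 34.9%).

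The excess lay mainly at distances of 2 to 10 kb. A nearest neighbour 2 to 5 kb away was found for 10.7% of wide and 8.26% of narrower peaks, and one 5 to 10 kb away for 14.1% and 11.3%. At under 1 kb the shares were 16.3% (15.0 to 17.8) and 16.9% (16.3 to 17.4), which overlap within counting error. Peaks with a neighbour within 10 kb on both sides made up 9.18% of wide peaks (8.11 to 10.3) and 7.13% of narrower ones (6.77 to 7.51).

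The difference was smaller within regions. When each wide peak was set against the narrower peaks of its own 1 Mb bin, over the 1125 bins that held both kinds, the shares with a neighbour within 10 kb were 45.0% and 43.6%, a difference of 1.397 percentage points in place of 5.01. Measured between midpoints the order was reversed, 8.62% against 24.4%, because a midpoint distance includes part of the peak's own width. The rule by which the peak caller joined or split neighbouring signal is not stated in the labels, and its part in these values was not tested.

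Wide peaks were also less often alone, defined as having no other peak within 100 kb, which held for 8.94% of all peaks on these chromosomes. The share was 186 of 2669, or 6.97% (6.03 to 8.002), among wide peaks and 1779 of 19316, or 9.21% (8.81 to 9.63), among narrower ones. It was lower for wide peaks on 15 of 19 chromosomes, with the most negative difference, -9.14 points, on chromosome 10 (2.55% against 11.7%), and higher on chromosomes 5, 7, 12 and 14, with 14.2% against 8.07% on chromosome 5. In the bins that held both kinds the shares were 6.20% and 7.57%. For the wide peaks of 10 to 12 kb the share alone was 9.30%, like that of the pooled narrower peaks.

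Wide peaks that stood alone were mostly little above the limit. Their median width was 11276 bp, against 12495 bp for wide peaks with a neighbour within 10 kb, and the widest of the 186 was 23793 bp. The wide peaks farthest from any other were one of 10248 bp on chromosome 5 from 117051558 to 117061805, with no other peak for 6.55 Mb before and 9.30 Mb after it, and one of 10289 bp on chromosome 2 from 29150826 to 29161114, with 2.49 and 4.69 Mb. Then came 11690 bp on chromosome 12 (86075091 to 86086780), 10009 bp on chromosome 15 (84906581 to 84916589) and 10503 bp on chromosome 18 (82247064 to 82257566), whose nearest peaks were 2.18, 1.15 and 1.12 Mb away. In all, 6 wide peaks lay over 1 Mb from any other, or 0.22% (0.08 to 0.49), against 32 narrower ones, or 0.17% (0.11 to 0.23).

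Among the wide peaks, the wider the peak the closer its neighbours. The share with another peak within 10 kb was 39.3% (36.6 to 42.0) for the 1312 peaks of 10 to 12 kb, 46.2% (42.7 to 49.8) for the 770 of 12 to 15 kb, 51.8% (46.9 to 56.6) for the 425 of 15 to 20 kb and 61.1% (53.1 to 68.7) for the 162 of 20 kb or more. The median distance to the nearest peak fell from 15529 to 11970, 9588 and 5862 bp over the same classes. The share alone went from 9.30% to 5.97%, 3.53% and 1.85%, the last resting on 3 peaks. Of the peaks of 7.5 to 10 kb, just under the limit, 37.0% (35.6 to 38.4) had a neighbour within 10 kb and 10.5% (9.59 to 11.4) were alone, and both intervals overlap those of the peaks of 10 to 12 kb.

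The relation over all widths was not monotonic. The share with a near neighbour was lowest for peaks of 6 to 7.5 kb, at 32.3% (31.1 to 33.6), and rose on either side, to 48.9% (47.4 to 50.4) for peaks of 2 to 4 kb and 61.1% for those of 20 kb or more. Under 2 kb the share was 45.0% (41.8 to 48.3). The lower quartile of the distance to the nearest peak, over all peaks of a class, was low at both ends. It was 390.5 bp under 2 kb and 638 bp for peaks of 2 to 4 kb. It was 4436 bp for 10 to 12 kb, 2686 bp for 15 to 20 kb and 782.5 bp for 20 kb or more. The mean number of other peaks within 100 kb rose less on the narrow side than on the wide side. It was 3.42 under 2 kb, 3.80 for 2 to 4 kb, 3.64 for 4 to 6 kb and 3.34 for 6 to 7.5 kb. Above the limit it was 3.85 for 10 to 12 kb, 4.79 for 15 to 20 kb and 5.54 for 20 kb or more.

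**Figure D4:**
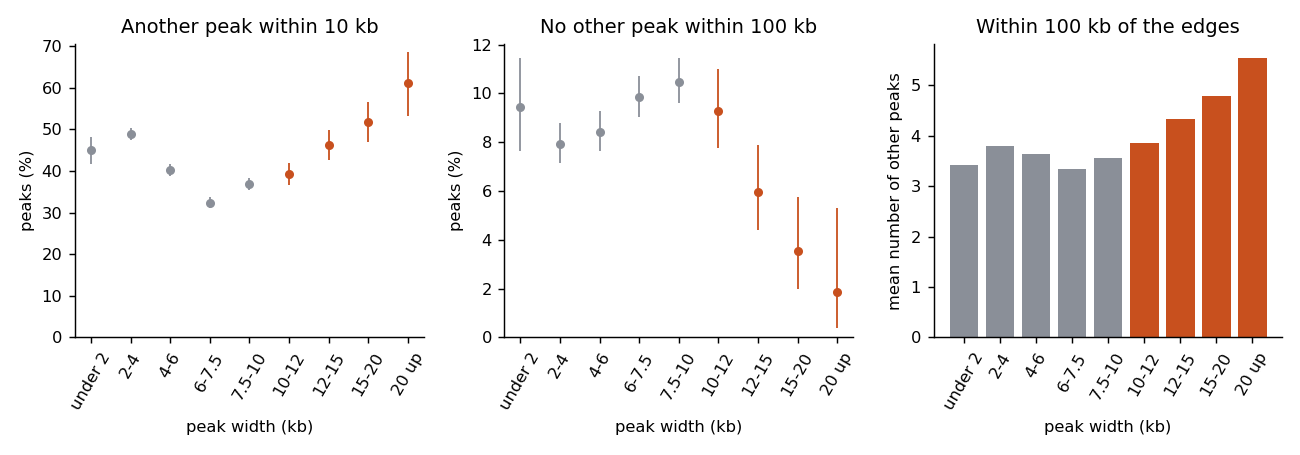
Share of peaks with another peak within 10 kb (left) and with none within 100 kb (middle), each in percent with exact 95% binomial intervals, and mean number of other peaks within 100 kb of the edges (right), by peak width in kb, wide peaks in orange. From 10 to 12 kb up to 20 kb or more, the first share rises from 39.3% to 61.1%, the second falls from 9.30% to 1.85% and the mean rises from 3.85 to 5.54.

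The denser surroundings of wide peaks extended well beyond the nearest neighbour. Within 100 kb of either edge lay 4.24 ± 2.80 other peaks (mean ± SD over 2669 wide peaks) against 3.56 ± 2.61 for the 19316 narrower ones, a difference of 0.68 that is small beside the spread between peaks. It was above 0 on 19 of 19 chromosomes, from 0.06 on chromosome 12 to 1.19 on chromosome 16. Against narrower peaks of the same 1 Mb bins it was 0.28. Within 500 kb the means were 16.3 and 15.0, and the difference was above 0 on 15 of 19 chromosomes, the exceptions being 5, 12, 15 and 18.

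By distance, the facing edges of other peaks numbered 23.3 per Mb around wide peaks and 19.1 per Mb around narrower ones in the first 50 kb, a ratio of 1.22. The ratio was 1.15 from 50 to 100 kb, 1.11 from 100 to 200 kb, 1.04 from 200 to 300 kb and from 300 to 400 kb, and 1.00 from 400 to 500 kb. There the values were 13.4 and 13.5 per Mb.

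**Figure D5:**
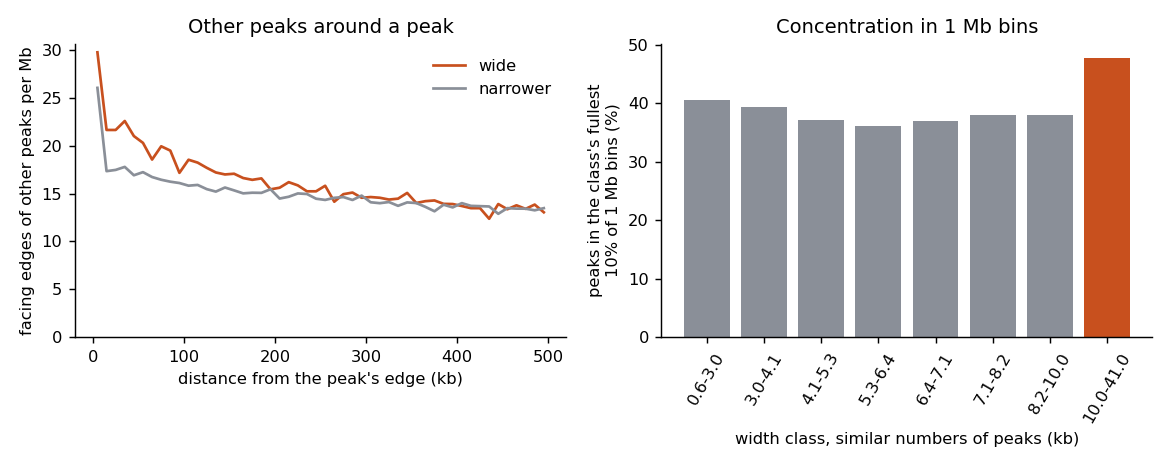
Left: facing edges of other peaks per Mb in steps of 10 kb from the peak's edge, around wide and narrower peaks. Right: share of the peaks of each width class that lie in that class's fullest 10% of 1 Mb bins, for 7 narrower classes and the wide peaks, all of similar number. The curves meet beyond 400 kb, and the wide peaks reach 47.7% where the narrower classes reach 36.0 to 40.5%.

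Wide peaks also followed one another along the chromosome. After a wide peak, the next peak was wide in 535 of 2666 cases, or 20.1% (18.6 to 21.6), and after a narrower peak in 2131 of 19300, or 11.0% (10.6 to 11.5). For the 7 narrower classes of similar number, the next peak was of the same class in 12.7% to 16.4% of cases. The share was the higher after a wide peak at all spacings examined, although the intervals overlapped for gaps of 1 to 2 kb, where 52 wide peaks were counted. With a gap under 1 kb the next peak was wide in 19.4% (14.6 to 25.03) after a wide peak and in 10.6% (9.22 to 12.2) after a narrower one, with a gap of 5 to 10 kb in 27.0% (21.7 to 32.8) and 13.1% (11.4 to 15.0), and with a gap over 100 kb in 13.7% (10.9 to 17.0) and 9.74% (8.90 to 10.6). Another wide peak lay within 100 kb of 52.4% of the wide peaks, while 32.7% to 41.1% of the peaks of a narrower class had one of their own class so near.

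In runs of consecutive peaks that were all wide, 949 wide peaks stood in 414 runs of 2 or more, or 35.6%, and 1720 stood singly between narrower ones. The longest run lay on chromosome 6 from 41935921 to 42164620, where 8 wide peaks of 10281 to 27456 bp covered 60.8% of 229 kb, with no gap above 38.8 kb. A run of 7 on chromosome 7, from 39150890 to 46688168, was of another kind, since it extended over 7537 kb and included a peak-free stretch of 7074 kb. There were 3 runs of 5. That on chromosome 4, from 121097286 to 121236918, covered 48.7% of 140 kb, and that on chromosome 6, from 122977196 to 123088635, covered 60.4% of 111 kb. The run of 5 on chromosome 1, from 16151299 to 16471524, was looser, covering 20.6% of 320 kb with a gap of 143 kb in it.

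The widest peaks were the most gathered. Of the 162 peaks of at least 20 kb, 83 lay in bins with 5 or more wide peaks, or 51.2% (43.3 to 59.2), against 40.2% (35.5 to 45.1) of the peaks of 15 to 20 kb and 26.8% (24.4 to 29.2) of those of 10 to 12 kb. In 14 cases a peak of at least 20 kb was the only wide peak of its bin, or 8.64% (4.81 to 14.1). Among peaks of 10 to 12 kb this held for 311, or 23.7% (21.4 to 26.1).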

How the data were processed

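The deposited peak list of the L1 library holds, per the submitters' processing notes, peaks in mm9. The same notes name CASAVA, Bowtie2 2.2.2 and MACS 1.4.2, without roles or settings. Chromatin was sonicated to 2 to 5 kb, per the labels' protocols. The control, the handling of multiply mapping reads and the depth were not given in the sources used here. Malat1 and input were not analysed. Widths are end minus start. Spans, bins, distances and runs were computed with Python 3.11.15, numpy 2.4.6 and pandas 2.3.3, intervals (Clopper-Pearson) with scipy 1.17.1, and figures with matplotlib 3.10.9. The position functions were checked on simulated peaks. Named regions are the 10 widest peaks, the 5 bins with the most wide peaks (ties by bases under them), the 3 longest runs (same tie rule), the 5 wide peaks farthest from any other, the 3 nearest the limit on each side, and the 3 chromosomes highest and lowest by share and density. The tied bins and runs, the bin ninth in rank and the peaks of 20 kb or more were added after values were seen, as were the classes of similar number. The members and limits were chosen with earlier results of these data known. The reference tables are of another build (GRCm38), so no gene was assigned. No test between groups was made.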

Additional observations from a re-analysis of the deposited data

Results flagged for a closer look

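Wide peaks outside chromosomes 1 to 19 were set apart because the comparisons above do not use them. Chromosome X held 138 wide peaks among 2177, or 6.34% (95% binomial interval 5.35 to 7.45), below the 7.48% of chromosome 14, the lowest autosome, whose interval of 6.04 to 9.14 overlaps it. On X they held 13.6% of the covered bases, and the widest was 24912 bp. The placed part of chromosome Y held 6 wide peaks among 40, or 15.0% (5.71 to 29.8). Unplaced sequence held 22 among 464, or 4.74% (2.99 to 7.09). Within it, the unplaced sequence of chromosome Y held 16 among 385, or 4.16% (2.39 to 6.66). These counts have no control library beside them.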

How the results depend on the processing

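Limits of 8000, 12000 and 15000 bp gave 26.4%, 6.17% and 2.67% wide peaks, with 43.8%, 14.7% and 7.63% of covered bases. The share of wide peaks with another within 10 kb became 40.9%, 49.7% and 54.3%, the share alone 8.82%, 4.72% and 3.07%, and the difference in other peaks within 100 kb 0.32, 1.04 and 1.39. At 8000 bp wide and narrower peaks were nearly alike in near neighbours (40.9% and 39.9%) and in the share alone (8.82% and 8.98%). The 47.7% of wide peaks in the fullest 10% of bins, which depends on how many peaks are counted, was 37.6%, 59.2% and 74.8% at these limits, 57.1% with 500 kb bins, 33.0% with 5 Mb bins and 44.2% after the merge below. With X and Y, 11.6% were wide. After peaks closer than 1 kb were merged, 16.2% were wide, 35.9% of wide and 27.6% of narrower peaks had a neighbour within 10 kb, and 11.0% of narrower ones were alone. Between midpoints these were 8.62% and 24.4% within 10 kb, and 8.06% and 9.98% alone. Within 50 kb the shares were 83.4% and 78.6%, beyond 200 kb 2.74% and 3.21%, and the 500 kb difference was 1.23. In bins with both kinds, an alternative added after seeing the data, narrower peaks had 43.6% near and 7.57% alone, and the difference was 0.28. Wide peaks had near neighbours more often in 7 of 8 alternatives (midpoints excepted), were less often alone in 8 of 8 and had more peaks within 100 or 500 kb in 9 of 9. These tallies count only the sign of the difference. The binomial intervals of wide and narrower peaks overlapped for both shares at 8000 bp, and for the share alone beyond 200 kb. No paired analysis was possible because there is a single library per group. Depth, which sets which weak signal is called and how broadly, is unknown.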

Other observations

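When peaks less than 1 kb apart were merged, the 21985 peaks became 20018 and those of at least 10000 bp rose from 2669 to 3247, the widest being 83569 bp. Within the wide peaks, width and distance to the nearest peak had a Spearman correlation of -0.13, and within the narrower peaks 0.11. Both are descriptions over peaks of 1 library. Neighbouring 1 Mb bins were alike in their number of wide peaks, with a Spearman correlation of 0.32 over 2400 pairs after each chromosome's mean was subtracted.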
